A study of Rattus norvegicus with 11 samples.

Results

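The 6 offspring of control mothers were the reference animals of a rat study of maternal diet, and this account describes messenger RNA in their soleus muscle alone. They were the 6 animals with the diet label Control, out of 11 animals in the series, and no value from the high-fat animals was used. All 6 were male and 12 months old, of the strain Sprague Dawley, and no 2 shared a litter. Their mothers ate the normal fat diet, given as 6% soy oil in one label and 7% fat in another, with 10% sucrose, from 3 weeks ahead of mating until the pups were weaned at day 21. The offspring then ate standard chow and were fasted for 1 to 2 hours before the muscle was taken. The animals differed in size, with body weights of 704, 794, 642, 831, 760 and 909 g in animals 1 to 6 (mean 773 ± 94.2 g, SD, n = 6). The weighed fat depots made up 6.28%, 4.79%, 3.74%, 7.17%, 5.63% and 8.52% of body weight in the same order. Animal 3 was the lightest and leanest and animal 6 the heaviest and fattest.

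The soleus is a postural muscle of the lower leg that works for long periods at low force. Its fibres are mostly slow, which means that they use the slow myosin heavy chain Myh7, take up calcium with the slow pump Atp2a2 and draw their energy from mitochondria and myoglobin-bound oxygen. A minority of fibres use the fast myosin Myh2, and the fastest myosins, Myh1 and Myh4, belong mainly to other leg muscles. Between the fibres lie matrix, fat cells, macrophages, vessels and nerve, which all contribute RNA to a piece of whole muscle.

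The libraries held 10.6 to 15.4 M counted reads (M, mega, mean 12.7 ± 1.83 M), and 12333 to 12723 genes had at least 1 read in each. Levels are given as counts per M counted reads (CPM), and errors are SDs over the 6 animals. A gene with 0 reads could have had up to 3, or 0.195 to 0.284 CPM, a limit that covers counting error only. The coefficient of variation (CV, SD divided by mean) was described for the 8512 rows with a mean of 5 CPM or more, which took 99.4% of the reads. Just inside this limit was RT1-M3-1 at 5.004 CPM, and just outside it were Fbp2 and Rest, both at 4.999 CPM. No 2 libraries were alike within sampling noise, since a chi-square over genes averaged 30.8 to 114 per gene and pair against 1 for counting error alone. Precursor ribosomal RNA (Rn45s) differed widely, at 1162, 1985, 1380, 10109, 3344 and 7304 CPM in animals 1 to 6. Animals 4 and 6 were therefore far above the others in an RNA that poly(A) selection is meant to remove.

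The reads were dominated by the contractile apparatus. Skeletal actin (Acta1), the thin filament protein, took 62083 ± 5538 CPM, or 6.21% of all reads. The LIM protein Fhl1 followed with 39297 ± 4758 CPM, the slow calcium pump Atp2a2 with 23649 ± 3529 CPM and the slow myosin Myh7 with 20993 ± 2966 CPM. The other genes among the 20 highest were, in falling order, Myl3, Mb, Ckm, Tnnt3, Car3, Cryab, Myl1, Tnnt1, Plec, Aldoa, Tpm2, Myl2, Ndrg2, Slc25a4, Tpm3 and Hspb6. They hold light chains, troponins and tropomyosins, the oxygen store myoglobin (Mb), creatine kinase (Ckm), carbonic anhydrase of slow fibres (Car3), the adenine nucleotide carrier (Slc25a4) and small heat shock proteins. The order is that of read shares, which grow with transcript length, so it does not rank the genes by number of molecules. Together the 20 genes took 30.2% of reads (27.7% to 32.6% over the animals). The 100 highest genes took 47.6% and the 1000 highest 74.2%, and 128 genes were enough for 50% of all reads. By level, 97 genes reached 1000 CPM and 1318 reached 100 CPM.

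Most of the 20 leading genes were steady between animals. The tropomyosin Tpm2 had the smallest CV among them, 0.0619, with 6175 to 7277 CPM. Acta1 had a CV of 0.0892, with 55768 CPM in the lowest animal and 68039 CPM in the highest. Fast troponin T (Tnnt3) stood apart with a CV of 0.663. Its level was 6910, 16876, 1285, 25786, 10627 and 19896 CPM in animals 1 to 6, so that animal 4 had 20.1 times the level of animal 3. The next highest CVs among the 20 were 0.251 for the glycolytic enzyme Aldoa and 0.240 for the cytoskeletal linker Plec.

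By function, the 10 genes of the slow contractile list took 7.36 ± 0.480% of reads and the 11 genes of the fast list 2.77 ± 1.24%. The slow list exceeded the fast list in every animal, with 6.48% to 7.80% against 1.10% to 4.37%. This holds for the sums and not for each pair of genes. Fast Tnnt3 was above slow Tnnt1 in animals 2, 4, 5 and 6 (16876 against 7784 CPM in animal 2) and below it in animals 1 and 3. Tnnt3 and Myl1 were the highest fast genes, with means of 13563 and 9947 CPM. The fast share was 1.80%, 3.22%, 1.10%, 4.37%, 2.37% and 3.77% in animals 1 to 6, and the slow share 7.73%, 6.48%, 7.22%, 7.80%, 7.54% and 7.39%. The fast share varied 3.98-fold, from animal 3 to animal 4, and the slow share much less. All 10 slow genes had a CV of 0.5 or less, against 3 of the 11 fast genes. The cytoskeletal scaffold Csrp3 (CV 0.258) and the slow myosin relative Myh7b (CV 0.170) were the most variable slow genes. Myh7 itself lay between 17061 CPM in animal 4 and 24654 CPM in animal 1.

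Fast heavy chains were minor beside Myh7. Myh2, the myosin of type 2A fibres, was at 496, 1878, 111, 2101, 591 and 2143 CPM in animals 1 to 6. Its levels formed a low set (animals 1, 3 and 5) and a high set (animals 2, 4 and 6), with no value between 591 and 1878 CPM. Myh1, the myosin of type 2X fibres, had 82.3, 147, 20.2, 85.7, 567 and 46.0 CPM, highest in animal 5. Myh4, of type 2B fibres, had 19.2, 156, 8.33, 7.51, 19.4 and 7.42 CPM, highest in animal 2. The 3 fast myosins therefore peaked in different animals. Sarcolipin (Sln), a small inhibitor of the calcium pump, had 446, 202, 398, 282, 204 and 313 CPM (CV 0.325).

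The list of sarcomere and Z disc genes shared by fast and slow fibres took the largest part among the function lists, 16.5 ± 0.855% over 25 genes. It also holds the LIM protein Fhl1, at 3.93% of reads, and the small heat shock protein Cryab, at 1.10%. Creatine kinases and myoglobin took 3.11 ± 0.544%, with 14709 ± 2693 CPM for Mb and 14449 ± 2811 CPM for Ckm. Calcium release and uptake took 3.05 ± 0.397%, most of it Atp2a2. Animal 4 had the lowest share of the calcium list, 2.26%, while the other 5 lay between 3.07% and 3.36%. In animal 4 Atp2a2 was 16869 CPM against 23479 to 27088 CPM in the others.

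Mitochondrial energy genes encoded in the nucleus followed. The 33 measured subunits of complex I, which takes electrons from NADH, held 1.13 ± 0.165% of reads, led by Ndufb9 with 1008 ± 242 CPM. Complexes II to IV held 2.02 ± 0.356%, led by Cox6a2, the heart and muscle form of a cytochrome oxidase subunit, with 5506 ± 1163 CPM. Complex V with the adenine carrier held 2.45 ± 0.302%, led by Slc25a4 with 6200 ± 951 CPM and Atp5b with 4352 ± 325 CPM. Animal 3 was lowest for all of these lists, and in complex I and complexes II to IV animal 4 was highest. The TCA cycle held 1.03 ± 0.0695% and was steadier, with 1446 ± 116 CPM for the malate dehydrogenase Mdh1. Fatty acid uptake and oxidation held 1.22 ± 0.199%, led by the fatty acid carrier Fabp3 with 1919 ± 463 CPM. Glycolysis and glycogen held 2.13 ± 0.342%, led by Aldoa with 8390 ± 2107 CPM.

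Housekeeping functions took smaller shares. The cytosolic ribosome had 1.17 ± 0.114% over 79 rows, of which 58 reached 5 CPM, and translation factors had 0.772 ± 0.0374%. Heat shock proteins and chaperones had 1.55 ± 0.193%, most of it in the muscle chaperones Hspb6 (6196 ± 551 CPM) and Hspb7 (4763 ± 1142 CPM). The more abundant small heat shock protein Cryab is counted in the sarcomere list and not here. The proteasome and atrophy ligases, at 0.493 ± 0.0147%, and the antioxidant and iron genes, at 0.756 ± 0.0219%, were the steadiest function lists. The latter were led by glutathione peroxidase 1 (Gpx1) with 1877 ± 202 CPM. The extracellular matrix had only 0.537 ± 0.213% and was the least steady of the nonfibre functions, with 0.705%, 0.515%, 0.851%, 0.442%, 0.462% and 0.245% in animals 1 to 6. The function lists together, 397 genes, took 48.1 ± 2.70% of reads.

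Markers of other cell types were present at low levels, with marked differences between animals. In whole muscle, fewer cells of a type and less RNA per cell cannot be told apart. Macrophage markers took 0.115 ± 0.0551% of reads, with 0.207% in animal 1, 0.157% in animal 3 and 0.0688% to 0.0951% in the other 4. Of the 15 macrophage markers of 5 CPM or more, 13 were highest in animal 1, among them the antigen presentation chaperone Cd74 (729 CPM against 233 to 465 CPM) and the complement gene C1qa (219 CPM against 72.0 to 174 CPM). Adipocyte markers took 0.0862 ± 0.0195% and were highest in animal 3, the leanest animal, for 10 of 14 genes. The most abundant of them, Fabp4, was highest in animal 5 (547 CPM against 386 CPM in animal 3), Cidea in animal 1 and Lipe in animal 4. Counts of list members highest in 1 animal, here and below, have no share over all rows beside them. Adiponectin (Adipoq), the hormone of fat cells, had 71.8, 40.0, 103, 4.83, 28.3 and 30.4 CPM in animals 1 to 6.

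Endothelial markers took 0.0662 ± 0.0140% and smooth muscle and pericyte markers 0.0939 ± 0.0186%. Red blood cell genes took 0.115 ± 0.0164%, nearly all of it globin (Hbb 440 ± 61.9 CPM). The globin genes Hba1 and Hba2 are near copies whose short reads may have been split between them. Lymphocyte and mast cell markers took 0.00874 ± 0.00428%, and neutrophil and acute inflammation genes 0.00206 ± 0.000622%, with none of these 12 genes reaching a mean of 5 CPM. Schwann cell and nerve markers took 0.0287%, 0.0390%, 0.0316%, 0.0214%, 0.215% and 0.0173% in animals 1 to 6, a value for animal 5 that stands apart from the rest.

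**Figure D1:**
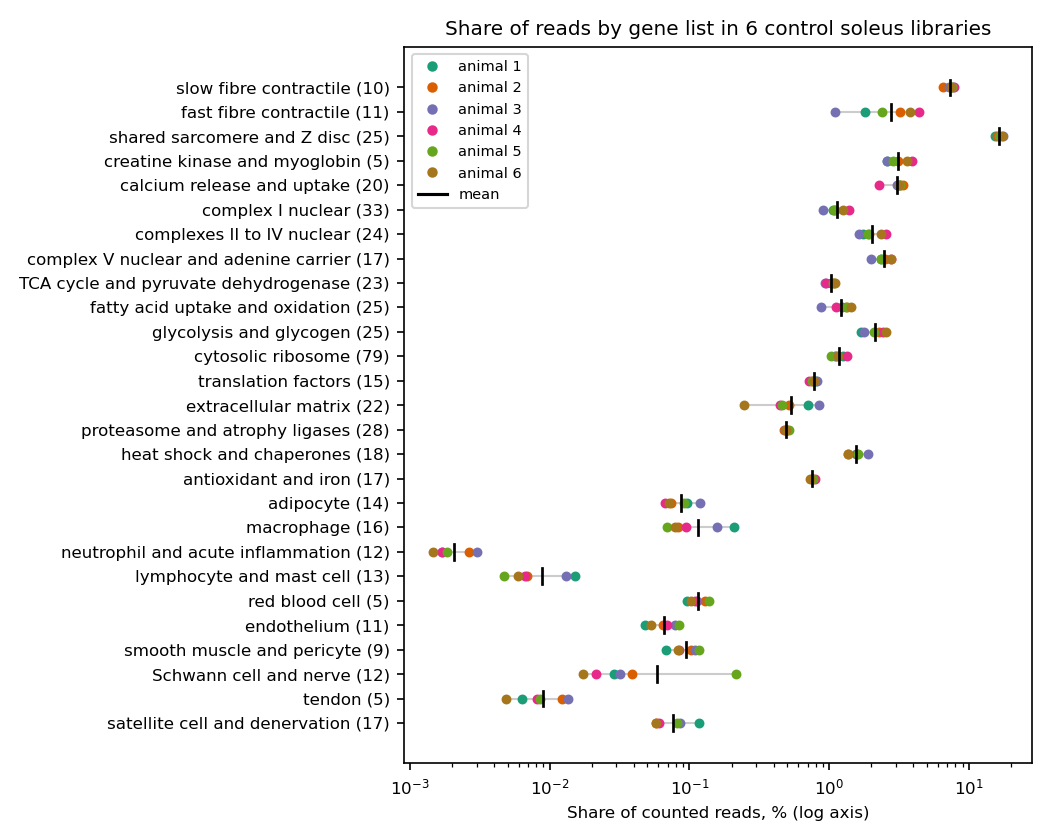
Share of counted reads, in percent on a log axis, taken by each gene list in the 6 control animals. Coloured points are animals, black ticks the mean, and the number of measured genes is in parentheses. Shared sarcomere genes lead with a mean of 16.5%, fast fibre genes spread from 1.10% to 4.37%, and the Schwann cell point of animal 5 (0.215%) lies far from the other 5.

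Most genes differed little between the 6 animals. The median CV over the 8512 rows was 0.166, with quartiles of 0.116 and 0.236, while counting error alone would give a median of 0.0531. For 6566 rows (77.1%) the CV was more than 2 times the counting value. A CV under 0.1 was found for 1476 rows (17.3%), a CV over 0.5 for 210 rows (2.47%) and a CV over 1 for 24 rows. Abundant genes were steadier, with a median CV of 0.141 for the 1318 rows of 100 CPM or more and 0.200 for the 3213 rows of 5 to 20 CPM.

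The steadiest gene was Coro6, a coronin of the actin cytoskeleton, with 948 to 996 CPM in the 6 animals and a CV of 0.0188, against 0.00905 from counting alone. The splicing factor Hnrnpl had 221 to 232 CPM (CV 0.0193), and the phosphatase scaffold Ppp2r1a had 249 to 264 CPM (CV 0.0236). The other 7 of the 10 lowest were Blvrb, Rtfdc1, Trmt2a, Farsa, Npepl1, Ppp5c and Ubl7. For these 7 no spread was left once counting error was taken off, and for Hnrnpl the CV barely exceeded its counting value of 0.0188, so the low rank of these 8 is within the reach of counting error. The usual reference genes were not among the steadiest, with a median CV of 0.150 against 0.166 over all rows. Rplp0 and Sdha had CVs of 0.106 and 0.111, while beta-actin (Actb) ran from 288 to 554 CPM (CV 0.256).

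**Figure D2:**
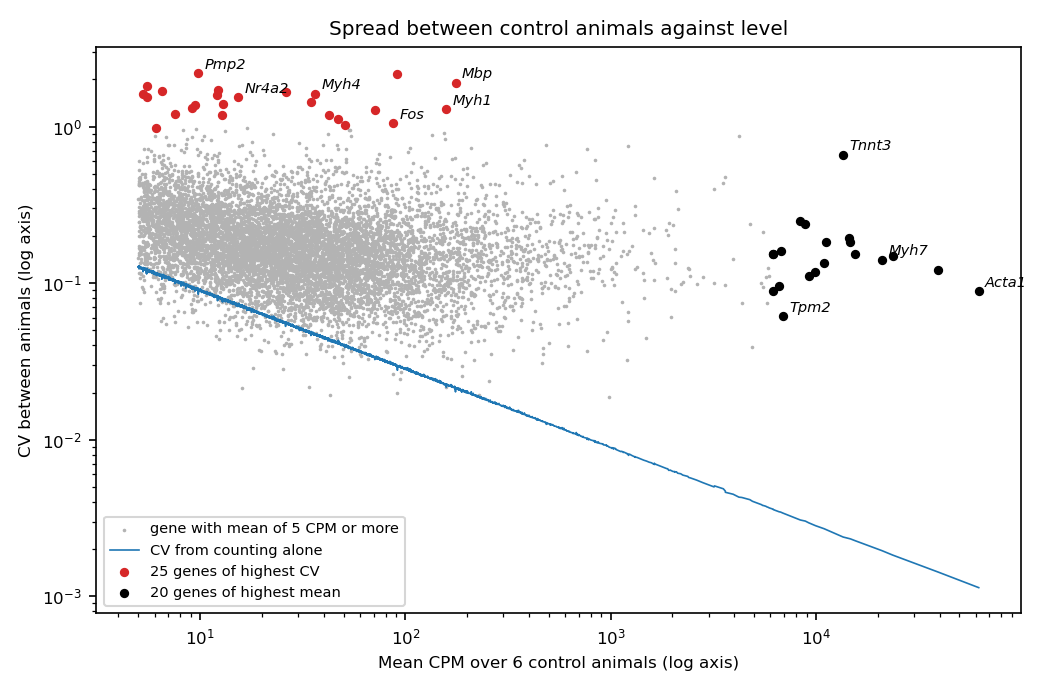
CV between the 6 animals against mean CPM for each row of 5 CPM or more, both on log axes, with the CV from counting alone as a line. Red points are the 25 genes of highest CV and black points the 20 of highest mean. Tnnt3 (CV 0.663) is the black point that lies well above the other abundant genes.

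The 25 most variable genes included 4 of the Schwann cell and nerve list and 4 of the fast contractile list, while 13 belonged to none of the lists used here. The limit in CV lay between Cldn1 (CV 0.984, the 25th) and Hpd (CV 0.982, the next). These CVs are a description that chose the genes, and no test was made of them. Animal 5 was highest for 17 of the 25, animal 2 for 4, animal 1 for 2, animals 3 and 4 for 1 each and animal 6 for none. Pmp2, Dusp15, Sfrp5, Cntf, Cyp2s1 and Pllp were below 5 CPM in every other animal and met the minimum mean only through animal 5. The number for animal 5 thus follows in part from the minimum mean and the choice by CV.

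Myelin genes led the list. The myelin lipid carrier Pmp2 had 53.8 CPM in animal 5 and 0.189 to 3.25 CPM in the others (CV 2.21), with no more than 3 reads in each of animals 1, 3 and 6. Myelin basic protein (Mbp) had 856 CPM in animal 5, 101 CPM in animal 2 and 13.6 to 32.4 CPM in the other 4 (CV 1.91). Both thus share 1 extreme library. Periaxin (Prx), a scaffold of myelinating Schwann cells, had 114 CPM in animal 5 against 6.40 to 11.2 CPM. Ciliary neurotrophic factor (Cntf), a Schwann cell product, had 28.8 CPM against 0.949 to 3.64 CPM. The membrane proteolipids Pllp and Mal had 22.6 and 49.3 CPM in animal 5, and 1.04 to 9.43 CPM over the other animals.

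The same library was highest for Dusp15 (25.8 CPM), the Wnt inhibitor Sfrp5 (54.4 CPM), Cyp2s1 (22.7 CPM), the lipocalin Apod (133 CPM), Plekhb1 (43.6 CPM) and the tight junction protein Cldn1 (18.1 CPM). Markers that separate nerve from muscle moved with them: 6 of the 7 Schwann cell and nerve markers of 5 CPM or more were highest in animal 5. The exception was Cnp, at 72.1 CPM in animal 5 and 46.5 to 85.2 CPM in the others. The limit of 5 CPM is a mean that includes animal 5, so this count is not free of the high values in that animal. The amount of nerve in each piece of muscle was not measured, and its part in these values was not tested. Without animal 5, 12 of the 25 genes remained among the 25 most variable, led by Magea11, Myh4, Myh8, Nr4a2 and Actn3. The number of rows with a CV over 0.5 was 210 over all animals, 209 without animal 5 and 190 to 281 with each animal left out in turn.

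**Figure D3:**
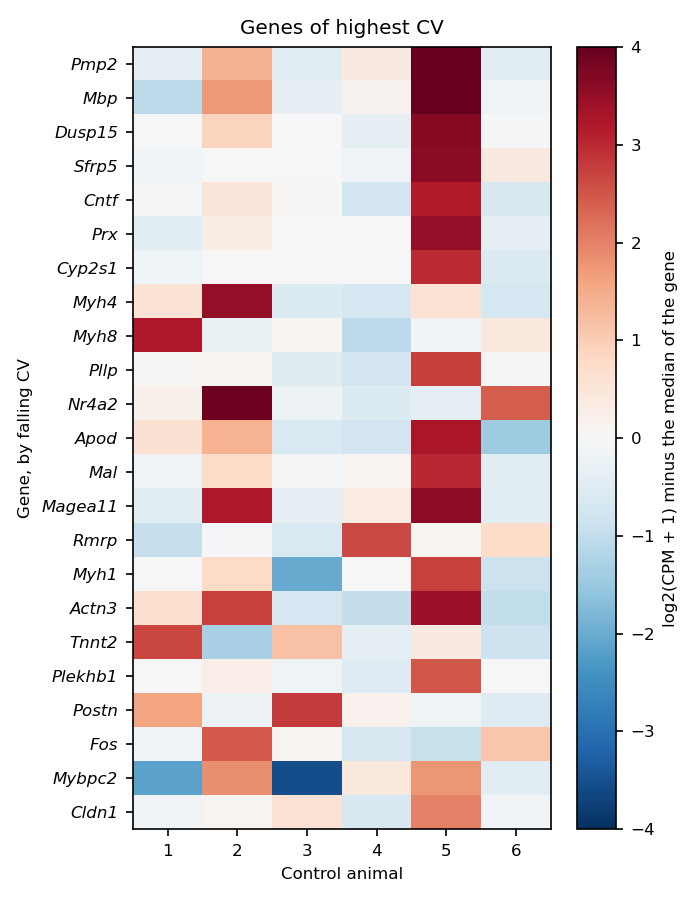
Levels of 23 of the 25 genes of highest CV (rows, by falling CV) in the 6 control animals (columns), as log2(CPM + 1) minus the median of the gene, with colours capped at 4. The myelin genes at the top are deepest red in animal 5, and Myh8 and Tnnt2 are highest in animal 1.

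Genes of fast fibres formed another group among the 25. Actn3, the fast-fibre alpha-actinin, had 32.3, 137, 11.8, 9.58, 226 and 9.44 CPM in animals 1 to 6. The fast myosin-binding protein Mybpc2 had 6.49, 120, 1.80, 43.0, 110 and 23.6 CPM. Animals 2 and 5 were high in both genes and in Myh1. These 2 animals were also the only ones above 3 CPM in the melanoma antigen family gene Magea11, with 22.5 and 29.2 CPM against 0.846 to 2.16 CPM.

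Animal 1 was high in immature muscle genes. The neonatal myosin Myh8 had 51.1 CPM there against 1.73 to 6.58 CPM in the others. Troponin T2 (Tnnt2), the form of heart and developing muscle, had 140 CPM in animal 1, 49.5 CPM in animal 3 and 8.08 to 27.9 CPM in the other 4. Animal 1 also had the highest share of satellite cell and denervation genes, 0.116% against 0.0572% to 0.0862%, and of these the embryonic myosin Myh3 had 443, 125, 320, 125, 300 and 118 CPM.

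Immediate early genes, which respond within minutes to activity, handling or stress, peaked in animal 2. Fos had 44.5, 264, 51.6, 30.3, 25.5 and 106 CPM in animals 1 to 6. The orphan receptor Nr4a2 had 60.8 CPM in animal 2, 20.7 CPM in animal 6 and 1.81 to 3.67 CPM in the others, and Nr4a1 likewise was highest in animals 2 and 6 (414 and 213 CPM). Animal 2 was highest for 13 of the 17 listed immediate early genes of 5 CPM or more. The matrix protein periostin (Postn) had 62.7, 17.4, 148, 23.0, 18.3 and 13.9 CPM, highest in animal 3. Rmrp, the RNA of a ribosomal RNA-processing enzyme, had 1.88, 4.12, 2.56, 33.1, 4.79 and 8.07 CPM in animals 1 to 6. The animals ranked in the same order for Rmrp as for Rn45s, and a link between these RNAs was not tested.

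The spread also touched the circadian clock. In this timing circuit Bmal1 and Clock drive E-box genes such as Ciart and the Per genes, whose products repress them, while D-box factors such as Dbp and Tef act downstream. The labels give no time of day for the tissue collection. Bmal1, listed as Arntl, had 27.7, 21.3, 60.8, 9.84, 9.73 and 7.16 CPM in animals 1 to 6 (CV 0.890). Dbp had 152, 206, 40.8, 184, 276 and 270 CPM (CV 0.462), and Ciart, listed as RGD1566380, had 4.27, 5.55, 0.947, 7.94, 14.8 and 14.9 CPM (CV 0.709). Animal 3 was highest in Bmal1 and lowest in Dbp and Ciart, and animals 5 and 6 were at the other end. Per2, a repressor, is shown with them because its promoter holds the D-box letters.

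Promoters are the 250 bases before the annotated start, 5′ to 3′ on the gene's strand, from RefSeq on build GRCr8, and capitals mark a motif found on either strand. They show one example for each of 3 motifs: the E-box CACGTG, the ROR element AGGTCA, read as TGACCT from the other strand, and the D-box TTATGTAA, read as TTACATAA from the other strand. Bmal1 lies at chr1:176766078-176766327 on the plus strand, Ciart at chr2:186112247-186112496 on the minus strand and Per2 at chr9:99496994-99497243 on the minus strand.
Bmal1: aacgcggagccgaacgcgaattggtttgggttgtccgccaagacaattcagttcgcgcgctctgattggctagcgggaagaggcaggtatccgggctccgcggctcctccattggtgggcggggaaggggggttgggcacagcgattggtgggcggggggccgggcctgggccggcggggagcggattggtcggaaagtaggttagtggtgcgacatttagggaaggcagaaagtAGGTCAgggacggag
Ciart: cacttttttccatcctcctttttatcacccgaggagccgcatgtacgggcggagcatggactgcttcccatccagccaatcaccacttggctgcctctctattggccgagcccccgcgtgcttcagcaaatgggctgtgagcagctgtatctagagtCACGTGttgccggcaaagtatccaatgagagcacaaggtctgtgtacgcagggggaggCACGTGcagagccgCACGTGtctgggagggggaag
Per2: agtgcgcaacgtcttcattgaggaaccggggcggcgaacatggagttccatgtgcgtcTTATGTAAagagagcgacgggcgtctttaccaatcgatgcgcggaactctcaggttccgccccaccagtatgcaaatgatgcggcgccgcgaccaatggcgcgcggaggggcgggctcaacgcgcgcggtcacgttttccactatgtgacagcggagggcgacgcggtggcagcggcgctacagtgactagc
Bmal1 held 1 ROR element, Ciart 3 E-boxes and Per2 1 D-box, and no 2 matches overlapped. Of 15 clock-related genes looked up, 14 matched, of which 3 held the E-box letters, 2 the ROR element and 1 the D-box. Of all 27457 promoters of this length, 5.79% held the E-box, 13.7% the ROR element and 0.816% the D-box. A match describes the letters alone, and binding was not measured.

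Levels of the 25 most variable genes were set against body weight and the fat share of body weight, which makes 50 relations over 6 animals. None passed an adjusted p of 0.05 by an exact two-sided permutation test of Pearson's r, and 1 had an unadjusted p under 0.05. The smallest p was for Postn and weight, with r = −0.88 (exact permutation p = 0.0153, Benjamini-Hochberg adjusted p = 0.764) and Spearman rho = −0.83 (exact permutation p = 0.0583). Without animals 3 and 6, the 2 farthest from the median weight, r was −0.74. With 720 pairings the smallest possible p is 0.00278, or 0.139 after adjustment for a single relation at that limit, so 1 relation alone could not pass. The genes that varied most were therefore not shown to follow body size.

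The measures themselves were related. Weight and fat share had r = 0.83 over the 6 animals (exact permutation p = 0.0444, adjusted over 5 relations 0.111) and rho = 0.77 (exact permutation p = 0.103), but r was 0.17 without animals 3 and 6. Weight and Rn45s, on the log2 scale, also had r = 0.83 (exact permutation p = 0.0444, adjusted 0.111) and rho = 0.83 (exact permutation p = 0.0583), with r = 0.84 without the same 2 animals. Weight, fat share and residual ribosomal RNA thus cannot be told apart with 6 animals. The animal names begin with a letter whose meaning the labels do not give. It was A for animals 2, 5 and 6, C for animals 1 and 3 and H for animal 4, so the letter C covered the 2 lightest animals.

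Across all 8512 rows, body weight was tested with edgeR's quasi-likelihood test, as a log2 slope per 100 g. At an adjusted p under 0.05, 1 row passed (0.0117%), and at 0.10, 258 rows (3.03%). The count at 0.10 was 0 with the name letter as a factor, 0 with log2 Rn45s as a covariate and 0 without each of animals 1, 2 and 3. It was 11 without animal 6 and 409 without animal 4. An unadjusted p under 0.05 was met by 1507 rows (17.7%), and by 919 with the letter, 750 with Rn45s and 913 without animal 6. The adjusted count at 0.05 depended on the tool, with 7 rows by limma voom, 370 by edgeR's likelihood ratio test and 593 by DESeq2. The gene that passed was Map1a, which codes for a microtubule-associated protein. Its level was 190, 131, 262, 90.7, 158 and 60.6 CPM in animals 1 to 6, and it fell with weight without exception, from 262 CPM at 642 g to 60.6 CPM at 909 g. The slope was −0.72 ± 0.065 log2 per 100 g (SE, n = 6, edgeR adjusted p = 0.0212). Within the letter A it was 158, 131 and 60.6 CPM at 760, 794 and 909 g, and within C 262 and 190 CPM at 642 and 704 g. With the letter as a factor the slope was −0.81 with an edgeR adjusted p of 0.403. The edgeR adjusted p was 0.425 with Rn45s as a covariate, and above 0.05 without each of animals 1, 2, 3 and 6 in turn, at most 0.308.

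The other rows did not pass 0.05, and their values are given as such. Next after Map1a among negative slopes were the extracellular superoxide dismutase Sod3 (−0.57), the proteoglycan biglycan (Bgn, −0.72), the membrane protein Emp1 (−0.56), Ndrg4 (−0.61) and the membrane-bound matrix protease Mmp14 (−0.76), all at an edgeR adjusted p of 0.0506. The leading positive slopes were those of the clock-driven ubiquitin protease Usp2 (0.55, edgeR adjusted p = 0.0608), fast troponin C (Tnnc2, 1.20), Per3 (0.60), the kinase Pim3 (0.50), the glycolysis regulator Pfkfb1 (0.68) and Grtp1 (0.56), the last 5 at 0.0652. Bgn had 313, 172, 333, 142, 165 and 79.8 CPM, and Tnnc2 414, 1080, 212, 1461, 552 and 1312 CPM.

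Myh2 had the steepest slope of the genes described, 1.75 ± 0.30 log2 per 100 g (SE, edgeR adjusted p = 0.0652). In order of weight its levels were 111, 496, 591, 1878, 2101 and 2143 CPM. Within the letter A they were 591, 1878 and 2143 CPM, in order of weight. Tnnt3 had a slope of 1.56 (edgeR adjusted p = 0.0777). The other fast myosins did not share the slope of Myh2, with −0.03 for Myh1 and 0.53 for Myh4 (edgeR adjusted p = 0.993 and 0.853). Myh7 had a slope of −0.08 ± 0.091 (edgeR adjusted p = 0.680).

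**Figure D4:**
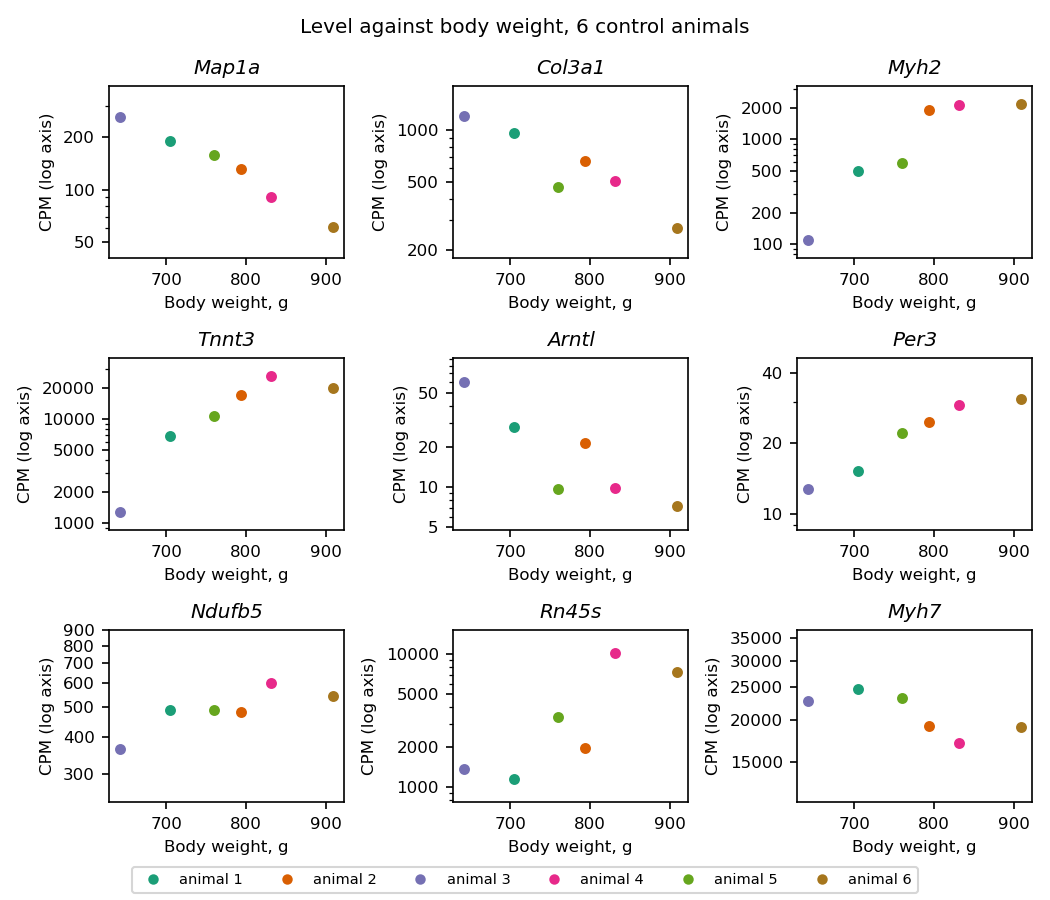
Level in CPM (log axis) against body weight in g for 9 genes, 1 point per animal. Map1a is lower and Myh2 higher in each heavier animal, Myh7 shows little slope, and Rn45s is highest in the 2 heaviest animals.

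Gene lists differed in how their members sloped on weight. An unadjusted edgeR p under 0.05 was met by 7.98% of all rows with a positive slope and 9.73% with a negative one, and the median slope over all rows was −0.01. These lists and counts were read with earlier results known, and genes of a list share their libraries. The fast contractile list had a median slope of 0.79, with 9 of 11 members positive and 2 negative. Under 0.05 were 7 of 11 members in the positive direction and none in the negative. With each animal left out in turn the median ran from 0.59 (without animal 3) to 1.73 (without animal 6). The slow list had a median of 0.10, with 2 of 10 members positive under an unadjusted edgeR p of 0.05. The extracellular matrix had a median of −0.55, with 19 of 21 members negative under an unadjusted edgeR p of 0.05. Of these, 13 met an adjusted p under 0.10, a limit met in that direction by 1.7% of all rows and in the positive direction by 1.33%. No row, and so no matrix gene, met it with the letter, with Rn45s or without each of animals 1, 2 and 3. Collagen Col3a1, with 968, 660, 1204, 507, 469 and 271 CPM in animals 1 to 6, had a slope of −0.69 (edgeR adjusted p = 0.0652).

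Energy genes had positive slopes of smaller size. Complex I had a median of 0.27 with 29 of 33 members positive under 0.05, complexes II to IV 0.28 with 20 of 24, and complex V with the adenine carrier 0.26 with 16 of 17. Fatty acid oxidation had a median of 0.25 with 17 of 25, and glycolysis 0.19 with 12 of 23. None of these members passed 0.05 after adjustment over all rows. With the name letter as a factor, members under an unadjusted edgeR p of 0.05 numbered 19 in complex I and 9 in complexes II to IV. They numbered 11 in complex V, 5 in fatty acid oxidation and 2 in glycolysis. With log2 Rn45s as a covariate the median was 0.09 for complex I, with 1 member under 0.05, and 0.36 for fatty acid oxidation, with 12. That covariate left 6 such members in complexes II to IV, 4 in complex V and 3 in glycolysis. The fast list then had 1.07 and the matrix −0.59, while the slow list turned to −0.11, with 0 members under 0.05.

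The clock list was split by direction. Arntl (−1.05), Clock and Npas2, the activators, had negative slopes under an unadjusted edgeR p of 0.05, and Per1, Per2, Per3, Tef, Dbp and RGD1566380 had positive ones, which makes 3 and 6 of 14 genes. In either direction, only 3 of the 14 were under that limit with the name letter as a factor, and 1 with log2 Rn45s as a covariate. Macrophage markers had a median slope of −0.40 with 7 of 15 negative under an unadjusted edgeR p of 0.05, and adipocyte markers −0.48 with 4 of 14. The adipocyte median ran from −1.34 without animal 6 to −0.26 without animal 3. With the name letter as a factor the macrophage and adipocyte medians were 0.23 and −0.05, so the direction of the macrophage list turned. Their part in the slopes of matrix genes was not tested. The letter left the fast list at 0.37 and the matrix at −0.51.

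**Figure D5:**
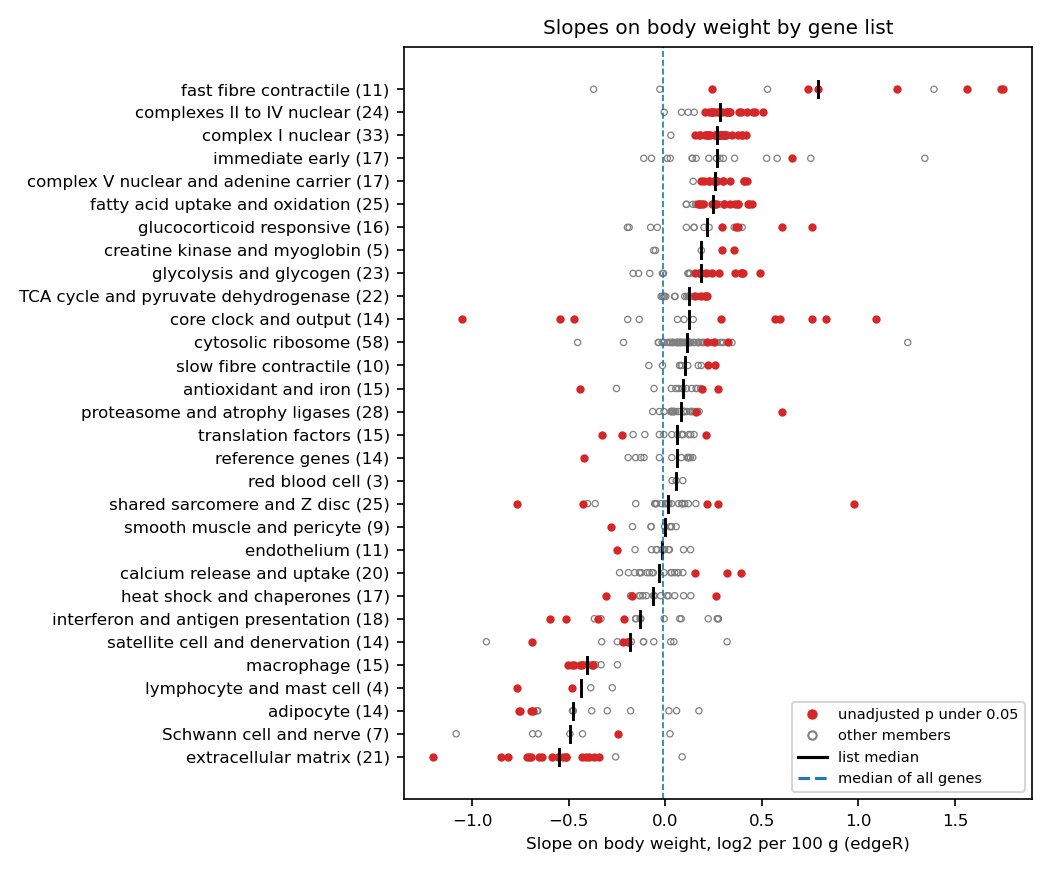
Slope on body weight, in log2 per 100 g, of each measured member of the gene lists, sorted by list median (black ticks). Red points have an unadjusted edgeR p under 0.05. Matrix genes lie at the negative end (median −0.55) and fast fibre genes at the positive end (median 0.79), while the dashed line marks the median of all rows.

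No row was related to the fat share of body weight at an adjusted p under 0.05 (0%) by edgeR's quasi-likelihood test, where the smallest adjusted p was 0.375. An unadjusted p under 0.05 was met by 1052 rows (12.4%), and by 351 without animal 3 and 409 with log2 Rn45s as a covariate. By limma voom 0 rows passed, by edgeR's likelihood ratio test 26 and by DESeq2 84. The leading positive slopes, in log2 per percentage point of body weight, were those of LOC500300 (0.47) and Klhl38 (0.31), and the leading negative ones those of Pdzd2 (−0.32), the carboxypeptidase-like Cpxm2 (−0.33) and the collagen-binding receptor Antxr1 (−0.41). Klhl38 had 109, 114, 57.9, 116, 97.8 and 177 CPM in animals 1 to 6, lowest in the leanest animal, 3, and highest in the fattest, 6. Complex I had a median slope of 0.15 on fat share with 31 of 33 members positive under an unadjusted p of 0.05, where 6.09% of all rows met that. The matrix had −0.27 with 15 of 21 negative under that limit, where 6.27% of all rows met it. With Rn45s as a covariate complex I had 0.07 with 1 member under 0.05, and the matrix −0.18 with 2. The fits on weight and on fat share use the same 6 animals, so these values are no second line of evidence.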

How the data were processed

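Soleus samples of about 50 mg gave total RNA, 2 µg of which went through poly(A) enrichment and a sequencing run of 36 cycles, per the labels' protocols. The authors deposited whole-number read counts per gene name, not normalized, in 16810 rows. FastQC, BWA, HTSeq and edgeR are named, without versions, per the submitters' processing notes. Genome build and strand setting: not given in the sources used here. Short reads can be split or lost between closely related genes. The 5 columns of the high-fat animals were not used. Control animals 1 to 6 are those named C73, A110, C60, H10, A89 and A75.

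CPM was computed as the count divided by the column sum, times 1 M. Of the row names, 14002 are current RefSeq symbols (GRCr8), 2346 are synonyms and 438 are neither, and 24 names were turned into dates (0.106% of reads). Several large muscle genes and all mitochondrially encoded genes are not analysed here. The members, the 34 gene lists and the tests were chosen with earlier results of these data known. The genes named were the 20 of highest mean, the 25 of highest and 10 of lowest CV, up to 4 by mean and 2 by CV per list, up to 6 per direction and fit by p, and Myh7, Myh2, Myh1, Myh4, Adipoq, Dbp, Mb and Sln. Others were named after their values were seen. A few genes met the rule and are not reported here; every fit and list still includes them.

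Slopes were fitted with edgeR's quasi-likelihood test after trimmed mean of M values scaling, with Benjamini-Hochberg adjustment over 8512 rows and a threshold of 0.05. The standard error is the slope divided by the square root of F. Correlations used log2(CPM + 1) and all 720 pairings. Alternatives were other scalings, filters, tests (DESeq2, likelihood ratio, limma voom), the name letter, other fat measures and leaving out each animal, plus Rn45s as a covariate and removal of ribosomal RNA rows, both chosen after seeing the data. The scripts were tested on simulated data, at an adjusted p under 0.05. On weight, 2 of 67 changed genes were recovered at a slope of 0.25, 30 of 67 at 0.5 and 66 of 66 at 1. On fat share, 0 of 67 were recovered at 0.125, 18 of 67 at 0.25 and 64 of 66 at 0.5. Unchanged genes made up 8 of 106 calls on weight and 10 of 92 on fat share. How far these recovery counts carry over to the 6 animals was not tested. In the main fit on weight, Map1a was called at a slope of −0.72. Steeper slopes were not called there, with 1.75 for Myh2 and 1.20 for Tnnc2 (edgeR adjusted p = 0.0652 for both). A lack of calls therefore says little about slopes of any of these sizes. The p-values test relations over 6 animals of separate litters, and in the main fits they do not separate weight or fat share from Rn45s or the name letter. The software was Python 3.11.15 and R 4.3.3 with DESeq2 1.42.0, edgeR 4.0.16 and limma 3.58.1.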

Additional observations from a re-analysis of the deposited data

Results flagged for a closer look

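For the named genes, lists and measures, the gap from the highest or lowest animal to its nearest neighbour was divided by the whole range, and values above Dixon's 95% critical ratio for 6 samples are given here. Of 150 values checked 29 passed. Chance alone flags about 1 in 20, and 524 of the 8512 rows (6.16%) passed. Since the most variable genes were chosen for their spread, many flags among them follow from the choice.

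Animal 5 was the high one for Sfrp5 (ratio 0.967), Prx (0.955), Cyp2s1 (0.952), Pmp2 (0.943), Pllp (0.923), Dusp15 (0.908), Cntf (0.903), Plekhb1 (0.898), Mbp (0.897), Mal (0.871), Myh1 (0.768), Apod (0.756) and Cldn1 (0.753). The share of Schwann cell and nerve markers in that animal gave 0.891. Animal 5 was also the high one for Angptl4, a lipase inhibitor (ratio 0.845).

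Animal 4 was the low one for Atp2a2 (0.647) and for the share of the calcium release and uptake list (0.735). It was the high one for Rmrp (0.802), Myl2 (0.706), Myh7b (0.638) and Fkbp5 (0.813). Animal 2 was the high one for Myh4 (0.920), Nr4a2 (0.680) and Fos (0.664), animal 1 for Myh8 (0.902) and Tnnt2 (0.686), animal 3 for Hspb7 (0.709) and Postn (0.635), and animal 6 for Hpd (0.753).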

How the results depend on the processing

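The count of rows related to body weight at an adjusted p under 0.05 was 1 and moved to 23 with library size scaling, 10 with no filter beyond 1 count, 593 with DESeq2, 370 with the likelihood ratio test and 7 with limma voom. It was 0 with the name letter as a factor and 0 with log2 Rn45s as a covariate. Leaving out 1 animal gave 0 to 54, the highest without animal 5. For fat share the count was 0 and moved to 84 with DESeq2, 26 with the likelihood ratio test and 4 with mesenteric fat in g. The cause of these moves was not tested. Rows with a CV over 0.5 numbered 210, and 580 or 96 with a minimum of 1 or 20 CPM. Myh1 and Myh4 aside, no slope of a single gene named in the text turned its sign in the alternatives run. Of the list medians in the text, the slow list turned to −0.11 with Rn45s and the macrophage list to 0.23 with the letter, and the median of all rows moved from −0.01 to 0.00 without animal 5. Map1a was past 0.05 with RLE and upper quartile scaling and lost the call with the letter, with Rn45s and without animals 1, 2, 3 and 6. The 50 relations of the most variable genes could hardly pass at 720 pairings, or 120 without 1 animal, so their lack of calls says nothing about stability. Levels per kilobase were not run, since transcript lengths were not used here. No paired analysis was possible because only 1 group was studied. Libraries of 10.6 to 15.4 M reads limit genes near 5 CPM, where counting error gives a CV of up to 0.118 among the most variable genes.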

Other observations

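A few genes split the 6 animals into 2 sets with nothing between. Among the 8498 named rows, 8 (0.0941%) had at least 2 animals on each side of a gap of 3-fold or more, computed on CPM plus 0.5. They were Magea11, Rpl30, Nr4a2, Actn3, Fam111a, Mybpc2, Myh2 and Mbp. The row of the ribosomal protein gene Rpl30 had 19.7, 14.2 and 19.1 CPM in animals 2, 3 and 6 and 1.54, 1.21 and 1.39 CPM in animals 1, 4 and 5. Ribosomal protein genes have many near copies, so the reads of this row are uncertain. The protease gene Fam111a had 20.2 and 22.3 CPM in animals 3 and 6 and 81.3 to 116 CPM in the other 4. The lightest and the heaviest animal were thus the low ones for Fam111a.

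Genes that respond to glucocorticoid hormones did not share 1 high animal. The receptor chaperone Fkbp5 had 24.2, 25.0, 19.2, 60.2, 26.9 and 21.9 CPM in animals 1 to 6, highest in animal 4. Angptl4, an inhibitor of lipoprotein lipase, had 6.14, 5.47, 10.5, 9.66, 38.1 and 9.57 CPM, highest in animal 5. The class II antigen presentation gene RT1-Da had 225 and 141 CPM in animals 1 and 3 and 67.3 to 75.03 CPM in the other 4.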
